A study of Rattus norvegicus with 16 samples.

Results

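In embryonic rat kidneys, some exon probe sets read low in the Munich Wistar Frömter strain (MWF) and not in the spontaneously hypertensive rat (SHR). A probe set was a member where the mean of the 4 SHR arrays exceeded the mean of the 4 MWF arrays by at least 1.5 on the log2 scale and the lowest SHR array lay above the highest MWF array. Of 213067 exon-level probe sets, 483 met both conditions, which is 0.227%. The same rule with the strains exchanged gave 401 probe sets, or 0.188%. Total RNA came from kidneys of male embryos, taken at E15.5 from MWF and at E16.0 from SHR, with 4 samples per strain on 8 Affymetrix rat gene arrays. MWF is an inbred strain with few nephrons and inherited albuminuria, and SHR is an inbred strain with inherited high blood pressure. Strain and embryonic day cannot be told apart in this design, and it is not labelled which samples share an animal or a litter, so the spread between arrays may be technical. The same arrays were also summarised to 1 value per gene, so the gene-level values are no independent measurement.

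The probes of such an array are spread along each transcript, and an exon probe set gathers the few that lie in 1 stretch of it. If a gene is transcribed less, its probe sets are lowered together. A probe set that reads low while the rest of its gene does not can arise in several ways, among them a skipped exon, another start or end of the transcript, or a base difference under the probes. The members were chosen by the strain difference itself. Their differences, and those of other probe sets of their genes, are therefore a description and carry no test.

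Before the members are described, 1 array has to be named. SHR replicate 2 stood apart in markers of the sympathoadrenal lineage, the neurons and chromaffin cells that make catecholamines. The mean log2 level of Th, Dbh, Chga and Chgb was 6.03 in it, 10.78 to 11.16 in the other SHR arrays, 8.14 in MWF replicate 1 and 6.14 to 6.30 in the other MWF arrays. The summed intensity of 11 such genes was 1468 in SHR replicate 2, 10603 to 14021 in the other SHR arrays and 1517 to 2475 in MWF. For 14 genes of neurons and glia it was 3850, 6360 to 6844 and 3703 to 4112. Of the 7 measured adrenal cortex genes, 4 were under the 25th percentile of gene-level probe sets in every array, and their sum overlapped between strains at 794 to 1009 in MWF and 715 to 911 in SHR. Kidney identity genes were present, with 0 of 11 under that level in every array and none called between strains by limma. Of 11 measured red cell genes 7 were called higher in MWF and none lower, and their summed intensity was 29689 to 40554 in MWF and 22864 to 25938 in SHR. The sum of 12 liver genes ranged from 1998 to 12703 in MWF and from 1407 to 12162 in SHR. The part of these other cells in the members was not tested.

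The 483 differences ran from 1.504 to 6.02 with a median of 1.93, a 3.82-fold difference in intensity, and 60 of them reached 3. In MWF the median level of the members was 6.23, in SHR 8.38, and over all exon-level probe sets 7.93. The MWF mean of 214 members lay under the 25th percentile of all probe sets (5.97), and the SHR mean of 1 member did. Just inside the threshold were probe sets of Trmt11, Hsd17b4, Muc16 and Gpm6a, at 1.504 to 1.506. Just outside, without overlap between strains, were probe sets of Myof, Oas2, Cyp4f5 and Prkch, at 1.493 to 1.499. A further 329 probe sets differed by 1.5 or more with overlapping strains, and in 321 of them SHR replicate 2 was the only SHR array at or under the highest MWF array.

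Of the members, 380 carried 1 gene symbol, 13 carried several and 90 carried none. The 380 belonged to 230 genes, 1.39% of the 16582 genes with an exon-level probe set. In 174 genes there was 1 member, in 30 there were 2, in 11 there were 3, and the highest count was 16. Members without a symbol included sets of identical values. In all, 25 members shared their 8 values with another member, 23 of them without a symbol, and 465 remained when identical probe sets were counted once. The largest differences among members without a symbol were 5.28 and 5.19.

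The genes were sorted by their other, non-member probe sets. Where the median difference of these was at least 1.0 the gene is called gene-wide, from 0.5 to under 1.0 intermediate, and under 0.5 local. Genes with fewer than 3 other probe sets were kept apart. By this description 158 genes were local, 44 intermediate and 21 gene-wide, and 7 had too few other probe sets. Members do not enter the median, so a gene low along most of its length can fall outside the gene-wide class. At gene level Slc11a1 and Abcg3l3, both intermediate, differed by 2.17 and 1.99, and RT1-CE16, which is local, by 1.60. In the local genes a median of 5.13% of the gene's probe sets were members, and 137 of the 158 had 1 member. The 3970 other probe sets of local genes had a median difference of 0.0040, and 50.7% of them lay above 0, against 47.5% of all exon-level probe sets. The median was 0.69 in intermediate genes, over 661 other probe sets, and 1.19 in gene-wide genes, over 235. Other probe sets without overlap made up 7.46%, 31.9% and 24.7% in local, intermediate and gene-wide genes, where 4.59% of all exon-level probe sets had SHR wholly above MWF.

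**Figure D1:**
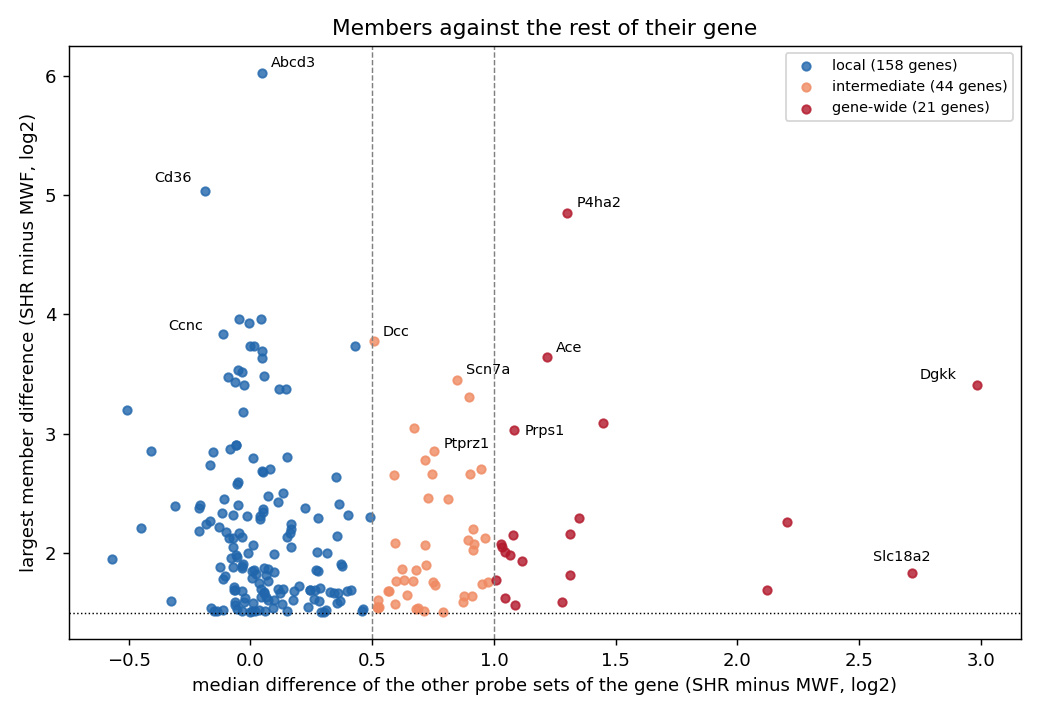
Each point is 1 gene with at least 3 other probe sets. The x axis gives the median SHR minus MWF difference (log2) of the gene's non-member probe sets and the y axis its largest member difference (log2). Dashed lines mark 0.5 and 1.0, the dotted line the threshold of 1.5. Most points stand close to 0 on the x axis, among them Abcd3 at 6.02 against 0.05.

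The levels of members were also set against those of the rest of their gene. In local genes the members lay, at the median gene, 0.36 above the gene's other probe sets in SHR and 1.48 below them in MWF. In gene-wide genes they lay 0.06 below the others in SHR and 0.65 below in MWF. Members of local genes were also brighter in SHR, with a median of 9.08, than those of intermediate genes (8.06) and gene-wide genes (7.90). Members were selected for high SHR and low MWF values, which favours offsets of these signs, and levels of different probe sets also depend on their probes. The gaps describe medians over genes and not exon usage.

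The largest difference of all was in Abcd3, which encodes a half-transporter of the peroxisomal membrane. Its member probe set 10826475 read 4.71, 4.39, 4.25 and 4.45 in MWF and 9.92, 10.84, 10.52 and 10.62 in SHR. The strains stood 65.0-fold apart there, and SHR replicate 2 was the highest array. The other 24 probe sets of Abcd3 differed by -0.44 to 0.64 with a median of 0.05, and none separated the strains with SHR above. At gene level Abcd3 read 9.92, 9.77, 9.75 and 9.77 in MWF and 10.15, 10.10, 10.22 and 9.99 in SHR, a difference of 0.31.

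Other local genes with large differences had broad cellular roles. Helz, an RNA helicase gene, read 5.94, 5.04, 5.99 and 5.21 in MWF and 9.91, 9.54, 9.36 and 9.19 in SHR in its member, while its other 30 probe sets had a median difference of 0.04. The member of Mtdh, which encodes metadherin, read 7.11, 6.20, 4.90 and 5.37 in MWF and 9.10, 10.04, 10.25 and 9.89 in SHR. MWF varied more there than in Abcd3, with an SD of 0.97 against 0.19, and the strains still did not overlap. The other 12 probe sets of Mtdh lay between -0.24 and 0.13.

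Ccnc encodes cyclin C of the mediator kinase module. Its member read 8.02, 7.89, 7.36 and 8.07 in MWF and 11.88, 11.78, 11.49 and 11.54 in SHR, so that the MWF arrays stayed near the median of all probe sets. The rest of Ccnc was at -0.11. Ttc27, a tetratricopeptide repeat gene, had 1 member of 96 probe sets, at 3.74, and the median of the other 95 rounded to 0. Wdr36, a gene of ribosome assembly, had 1 member of 28, at 3.73, beside a median of 0.01. Iqgap3, a scaffold gene of dividing cells, had 2 members of 36, at 3.96 and 1.58, beside a median of -0.05, and 9 of its other 34 probe sets lay above 0.

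At gene level the differences of these local genes were small. Abcd3, Mtdh, Helz, Ccnc and Ttc27 differed by 0.31, 0.28, 0.19, 0.18 and 0.10, and Iqgap3 and Wdr36 had no gene-level probe set with their symbol. Over the 123 local genes measured at gene level the median difference was 0.18 and the range -0.80 to 1.60, with 23 genes below 0 and 4 at 1 or more. All gene-level probe sets had a median of -0.02, and 0.922% of them reached 1. Whether a gene-level value includes the probes of the member was not given in the sources used here.

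**Figure D2:**
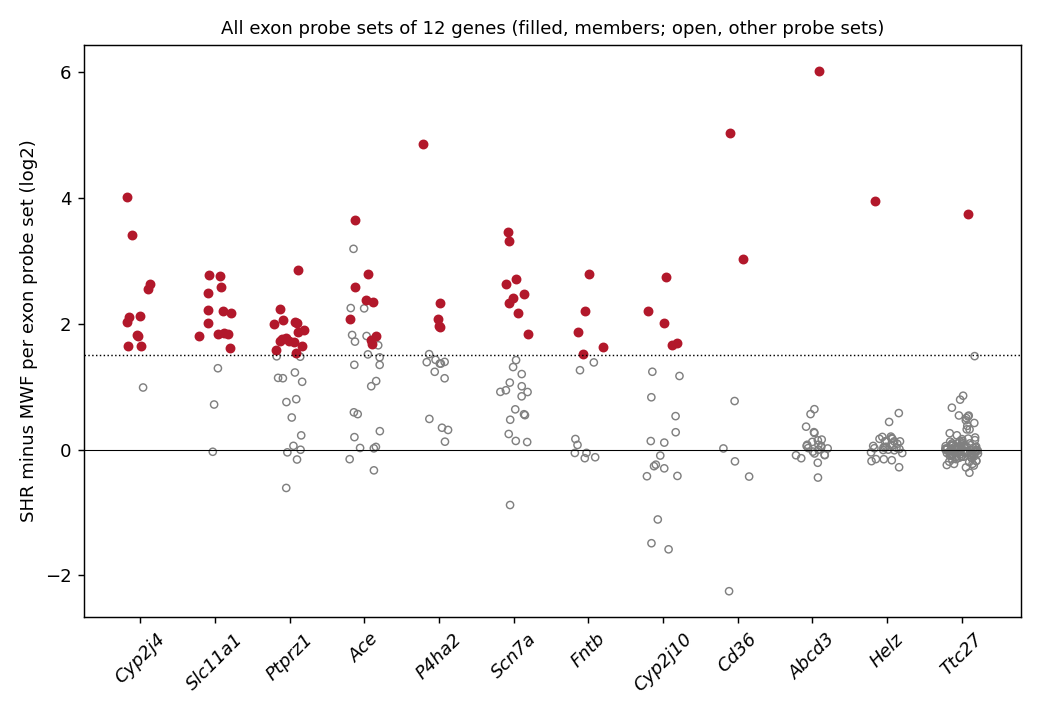
SHR minus MWF difference (log2, y axis) of every exon probe set of 12 genes (x axis), with members filled and other probe sets open. Dotted line, 1.5. Cyp2j4 and Slc11a1 have 11 of 12 and 13 of 16 probe sets as members, while Abcd3, Helz and Ttc27 have 1 each above a cloud near 0.

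Cd36 encodes a fatty acid transporter and scavenger receptor and is known to be rearranged in some SHR colonies. Its probe sets ran in both directions. Probe set 10853253 read 4.49, 4.46, 4.66 and 4.58 in MWF and 9.79, 9.17, 9.94 and 9.42 in SHR, a 32.7-fold difference. A second member differed by 3.03. Of the 5 others, 1 was lower in SHR by the exchanged rule, at -2.25, and the median was -0.19. At gene level Cd36 read 8.28, 8.22, 7.37 and 7.85 in MWF and 6.99, 6.95, 7.42 and 7.18 in SHR. This difference of -0.80, with overlapping strains, was the lowest of all 183 member genes measured there. By limma Cd36 was called higher in MWF at gene level, at an adjusted p of 0.044.

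A member in 1 direction and a probe set low in SHR in the other were found in 17 of the 230 genes. Of all 16582 genes with an exon-level probe set, 272 held one low in SHR by the exchanged rule. The 17 genes had 7 to 106 probe sets, beside a median of 8 over all exon-level genes. More probe sets give more chances of both directions, and no test was made of this count. Chosen after their values were seen, Exoc2, an exocyst subunit gene, had probe sets at 2.40 and -4.79, and Ddx19a, an RNA helicase gene, at 1.70 and -4.08. Atp8a1, a phospholipid flippase gene, had 1 member and 5 probe sets low in SHR. Of the 17 genes 16 were local and 1, Myof, was intermediate.

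Some local genes held several members. In Fntb, the gene of the beta subunit of protein farnesyltransferase, 5 of 13 probe sets were members. The leading one read 7.52, 7.72, 7.38 and 7.87 in MWF and 10.65, 10.24, 10.53 and 10.26 in SHR. The other 8 had a median of 0.01, and 2 of them separated the strains with SHR above. At gene level Fntb differed by 0.96. In Cyp2j10, of the cytochrome P450 family that oxidises arachidonic acid, 5 of 21 probe sets were members with a highest difference of 2.74, and the other 16 spread from -1.58 to 1.24.

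Its family member Cyp2j4, an epoxygenase gene, was low along nearly its whole length in MWF. Of 12 probe sets 11 were members, from 1.64 to 4.01, and the remaining one was at 0.99. The leading probe set read 4.83, 4.18, 5.41 and 4.97 in MWF and 9.04, 9.23, 8.20 and 8.97 in SHR. At gene level it read 6.69, 6.66, 6.84 and 6.54 against 8.97, 8.76, 8.90 and 9.02. Cyp2j4 and Cyp2j10 belong to a family of similar sequences, and some of their probes may bind RNA of both. Of 22 measured genes of the cytochrome P450 and arachidonic acid list, 4 were called lower and 1 higher in MWF at gene level. Calls were made by limma with Benjamini-Hochberg adjustment, at an adjusted p under 0.05. Of all gene-level probe sets 3.40% were called lower and 3.18% higher. The 4 genes were Cyp2j4, Cyp2j10, Ptgs2 and Ptgs1. All but Ptgs1 held members, chosen by the same contrast, so nothing is read from this count. The list's median difference was 0.13.

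Of the interferon-induced list, 4 of 26 genes with exon-level probe sets held members, beside 1.39% of all genes with such probe sets. Ifit1, which encodes an RNA-binding antiviral protein, had all 3 of its probe sets as members. The leading one read 4.84, 5.10, 5.10 and 5.46 in MWF and 8.55, 8.49, 8.34 and 8.65 in SHR. At gene level Ifit1 read 5.36, 5.51, 5.51 and 5.64 against 8.10, 8.03, 7.95 and 8.12, the widest gap of any member gene at that level, 2.54. Mx2, a dynamin-like antiviral GTPase gene, had 3 members of 12, up to 2.66, with the others at a median of 0.59. Ifih1, the gene of the RNA sensor MDA5, had 1 member at 1.54, and the others were at 0.52. Oas1a, an oligoadenylate synthetase gene, had 1 at 1.72, and the others were at 0.20. At gene level Mx2, Oas1a and Ifih1 differed by 1.15, 0.93 and 0.86. Oas1i, of the same family as Oas1a by its symbol, also held a member but was not on the list. Its gene-level difference was 1.40.

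The genes of the list differed in both directions at gene level. Of its 22 measured genes 6 were called lower in MWF, the 4 with members and Stat2 and Oasl, and 2 were called higher, Ifi44l and Irgm. The background shares of gene-level calls were 3.40% lower and 3.18% higher in MWF. The median difference of the list was 0.14, and the other 14 genes were not called either way. The summed intensity of the 22 genes was 3219 to 3380 in MWF and 3653 to 4232 in SHR, without overlap. Both the lower calls and this sum include the 4 genes with members, chosen by the same contrast. Neither the count nor the lack of overlap is therefore a separate result about the list.

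The promoters of Ifih1 and Oas1a are shown. Of the listed interferon-induced genes with a member, only these 2 have a promoter in the RefSeq-derived table (GRCr8). The promoters run from 250 bases before to 50 after the start, written 5′ to 3′ on the strand of the gene. They lie at chr3:67683919-67684218, minus strand, and chr12:41330216-41330515, plus strand. Capitals mark matches to the core of the interferon-stimulated response element, which is GAAA, any 2 bases and GAAA again, searched on both strands with overlaps allowed.
Ifih1: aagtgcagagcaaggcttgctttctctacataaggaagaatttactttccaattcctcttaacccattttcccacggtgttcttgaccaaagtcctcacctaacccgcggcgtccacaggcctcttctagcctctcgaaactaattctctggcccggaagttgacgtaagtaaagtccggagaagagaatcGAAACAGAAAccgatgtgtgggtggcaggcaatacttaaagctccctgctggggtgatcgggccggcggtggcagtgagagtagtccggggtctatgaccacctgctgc
Oas1a: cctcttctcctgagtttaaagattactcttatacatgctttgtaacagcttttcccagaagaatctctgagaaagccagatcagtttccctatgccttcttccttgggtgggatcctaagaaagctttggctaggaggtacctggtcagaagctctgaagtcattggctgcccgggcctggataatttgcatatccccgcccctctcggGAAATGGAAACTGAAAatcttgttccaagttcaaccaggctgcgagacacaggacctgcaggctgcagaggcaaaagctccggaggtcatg
Ifih1 held 1 match, starting 59 bases before the transcript start. Oas1a held 2 that overlap, starting 41 and 35 bases before it. A match was found in 1312 of 33469 rat promoters of this length, or 3.92%, and in 10 of the 195 promoters of member genes, or 5.13%. It was found in 17 of the 22 promoters of the interferon-induced list, or 77.3%, so most listed genes carry it whether or not they held a member. A match describes letters in these windows and shows no binding.

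The genes with the most members were Ptprz1 and Slc11a1. Ptprz1, a receptor tyrosine phosphatase gene of glia and other cells, had 16 members of 31 probe sets, from 1.53 to 2.85. The leading one read 5.39, 5.30, 6.93 and 5.06 in MWF and 8.78, 8.03, 8.58 and 8.71 in SHR. The other 15 had a median of 0.76. At gene level Ptprz1 read 7.05, 6.75, 7.07 and 6.70 in MWF and 8.12, 8.02, 8.24 and 8.44 in SHR, and all 4 SHR arrays lay near each other.

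Slc11a1, a metal ion transporter gene of macrophage phagosomes, had 13 members of 16, from 1.61 to 2.78. The leading one read 6.83, 5.99, 5.59 and 6.80 in MWF and 9.19, 8.40, 9.18 and 9.58 in SHR. At gene level SHR replicate 2 was at 7.62 and the other SHR arrays at 8.62 to 8.80, all above the MWF arrays at 6.003 to 6.43. The summed intensity of 16 macrophage and leukocyte genes was 2508 to 3233 in MWF, 3075 in SHR replicate 2 and 4351 to 5253 in the other SHR arrays. In whole kidneys, fewer cells of a type and less RNA per cell cannot be told apart, and the part of these markers in the difference of Slc11a1 was not tested.

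Further genes, with 2 to 11 members each, had diverse roles. Myof, a membrane repair gene, had 11 of 56, up to 2.03, and 28 of its other 45 probe sets separated the strains with SHR above. Scn7a, a sodium channel gene of glia and neurons, had 9 of 26, up to 3.45, reading 4.93, 5.39, 5.23 and 5.71 in MWF and 9.18, 8.69, 8.65 and 8.55 in SHR. The ATP-binding cassette gene Abcg3l3 had 7 of 10, up to 2.70, reading 6.09, 5.69, 6.03 and 5.99 in MWF and 8.76, 8.56, 8.87 and 8.43 in SHR. Dcc, the netrin receptor gene, had 3 of 30, up to 3.78, with the other 27 spread from -0.91 to 2.21. Ptgs2, the inducible cyclooxygenase gene, had 2 of 15, up to 2.45, where SHR replicate 3 (9.12) stood above the other SHR arrays (7.20 to 7.48).

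Of 13 genes listed for nucleotide and RNA processing with exon-level probe sets, 3 held members, beside 1.39% of all genes with such probe sets. The SHR arrays of these 3 lay close together. Prps1, a phosphoribosyl pyrophosphate synthetase gene, read 9.42, 9.59, 9.34 and 9.65 in MWF and 12.57, 12.51, 12.53 and 12.53 in SHR in its leading member. It had 3 members of 8, and its other 5 probe sets all separated the strains, with a median of 1.08. Pop5, which encodes a protein shared by RNase P and RNase MRP, had 3 of 5, and its leading member read 8.03, 8.54, 8.60 and 8.61 against 10.88, 10.86, 10.92 and 10.78. Med22, a mediator subunit gene, had 2 of 5, and its leading member read 6.72, 6.65, 6.60 and 6.66 against 10.04, 10.01, 9.77 and 10.04. At gene level the 3 genes differed by 1.53, 1.81 and 1.54. Of 12 measured genes of the list that holds them, these 3 were called lower in MWF by limma and none higher. Of all gene-level probe sets 3.40% were called lower and 3.18% higher. The other genes of the list come from the same families or complexes, and these 3 were chosen by the same contrast. Nothing is therefore read from the counts of this list. The list's median difference was 0.10.

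P4ha2, which encodes a subunit of the collagen prolyl hydroxylase, had the largest member difference of the gene-wide genes. Probe set 10733579 read 5.25, 4.62, 4.78 and 4.69 in MWF and 9.83, 9.24, 9.77 and 9.90 in SHR, a 28.8-fold difference. Its other 4 members reached at least 1.96, and all 12 further probe sets lay above 0, with a median of 1.30. At gene level P4ha2 read 7.19, 7.10, 7.30 and 7.18 in MWF, 8.18 in SHR replicate 2 and 8.81 to 8.88 in the other SHR arrays.

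Ace, the angiotensin-converting enzyme gene, had 9 members of 31. The leading probe set read 4.99, 4.59, 4.65 and 3.83 in MWF and 8.51, 6.76, 8.33 and 9.03 in SHR. Of the other 22 probe sets 20 lay above 0, with a median of 1.22, but only 2 separated the strains, and SHR replicate 2 was low in the gene as a whole, at 5.76 against 7.31 to 7.81 at gene level. Of 9 renin-angiotensin genes with exon-level probe sets 1, Ace, held members, beside 1.39% of all genes with such probe sets. At gene level 4 of the 9 measured genes were called lower in MWF by limma and none higher, beside 3.40% and 3.18% of all gene-level probe sets. The others were Agtr1a (0.78) and Agtr2 (0.63), which encode receptors for angiotensin, and Anpep (0.51), which encodes an aminopeptidase. Agtr1b (-0.28), Mas1 (-0.19) and Agt (-0.18) lay below 0, and the list's median difference was 0.19. Ace was chosen by the same contrast, so nothing is read from this count.

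**Figure D3:**
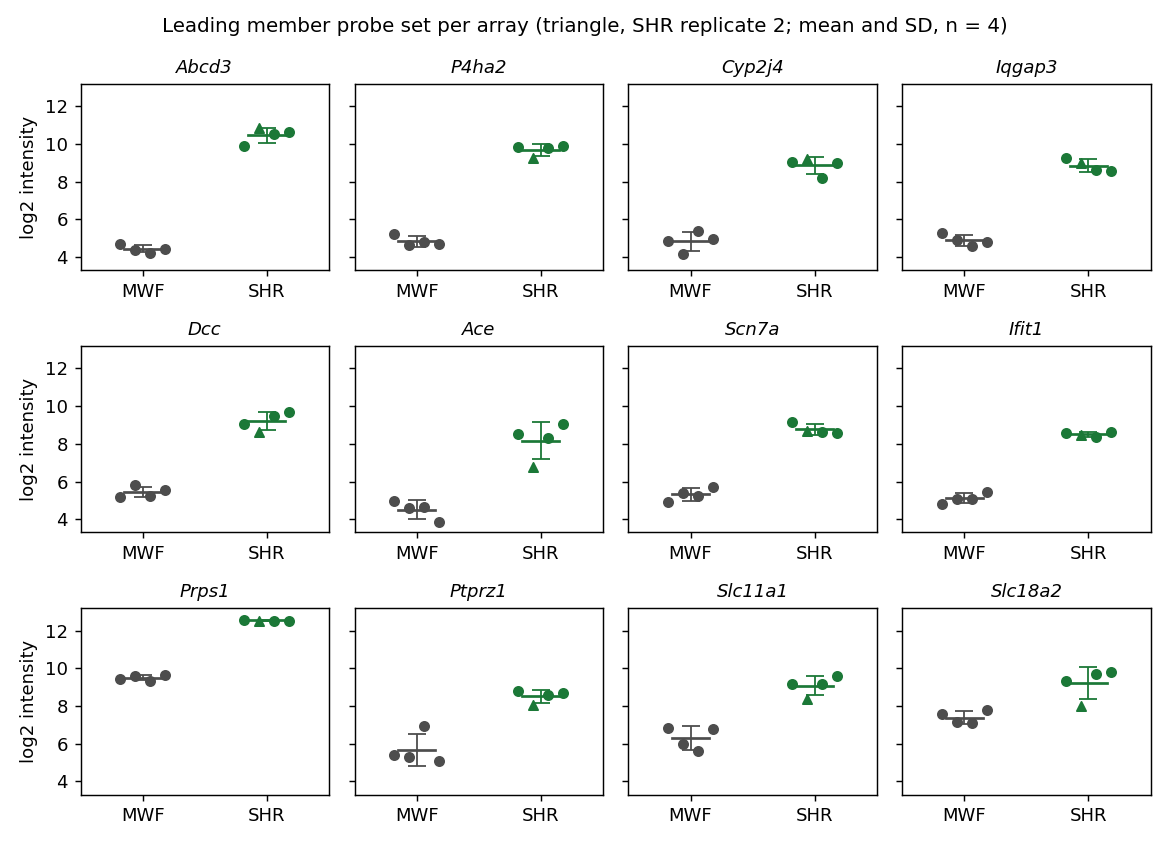
Log2 intensity (y axis) of the leading member probe set of 12 genes in each MWF and SHR array, with mean and SD (n = 4) and SHR replicate 2 as a triangle. In Abcd3, Cyp2j4, Ifit1 and Prps1 the triangle lies with the other SHR arrays, and in Ace and Slc18a2 it is the lowest SHR array.

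The position of SHR replicate 2 differed between the classes. It was the lowest SHR array in 35 of 45 members of gene-wide genes, in 84 of 120 members of intermediate genes and in 59 of 193 members of local genes. Its median distance from the mean of the other 3 SHR arrays was -1.60, -0.50 and 0.03 in these classes. The classes were formed from means that include this array. Chosen after their values were seen, the parathyroid hormone receptor gene Pth2r read 5.29 in SHR replicate 2 and 8.35 to 8.43 in the other SHR arrays, and the diacylglycerol kinase gene Dgkk 5.10 against 8.75 to 9.48. Isl1, a transcription factor gene of sympathetic and other neurons, read 6.78 against 8.74 to 9.55, and the sodium channel subunit gene Scn3b 6.03 against 7.84 to 8.75, both just above the highest MWF array.

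**Figure D4:**
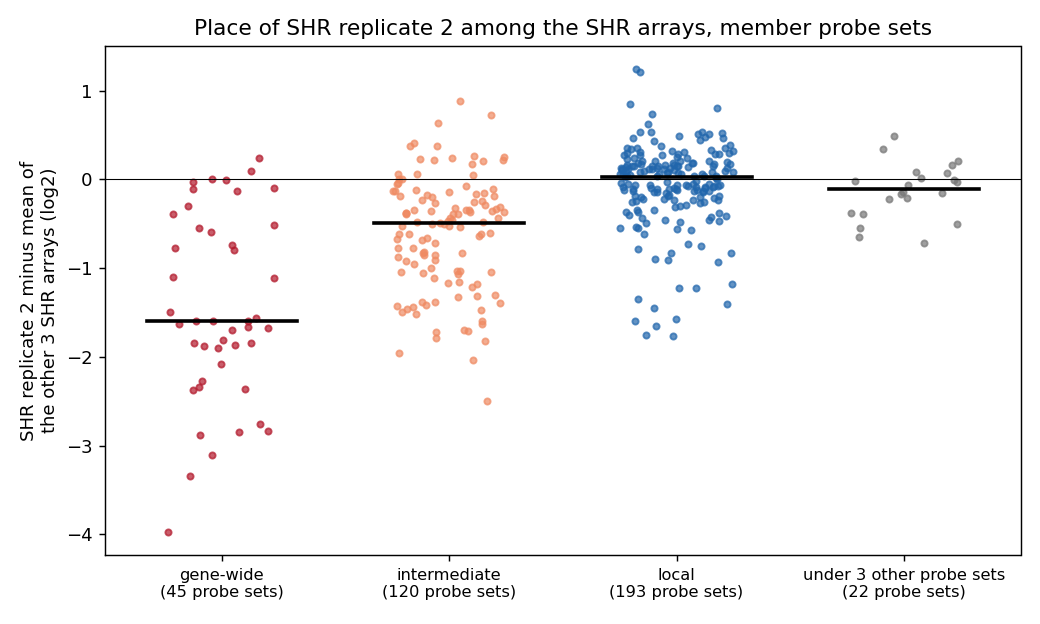
Each point is 1 member probe set with 1 gene symbol. The y axis gives SHR replicate 2 minus the mean of the other 3 SHR arrays (log2), and black bars are medians, at -1.60 for gene-wide, -0.50 for intermediate, 0.03 for local genes and -0.10 for genes with under 3 other probe sets.

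Of the sympathoadrenal list, 1 of 12 genes with exon-level probe sets held a member, beside 1.39% of all genes with such probe sets. This was the monoamine transporter gene Slc18a2. Its member read 7.56, 7.14, 7.08 and 7.78 in MWF and 9.32, 8.02, 9.71 and 9.82 in SHR. The other 16 probe sets of Slc18a2 had a larger median difference, 2.72, but none separated the strains. With SHR replicate 2 left out 1164 probe sets met the rule, in 367 named genes, 145 of them added. Among the added genes 24 were gene-wide, 51 intermediate and 44 local, and 26 had fewer than 3 other probe sets. The sympathoadrenal list then held members in 9 of 12 genes. The neuron and glia list held them in 7 of 14 instead of 1, and the macrophage list in 4 of 16 instead of 1. Over all 16582 genes the number was 367. This array was named for its low sympathoadrenal markers, so the gain on that list follows from the choice of array. It also had the lowest SHR sum on the neuron and glia list and on the macrophage list. Nothing is therefore read from the gains on those lists. Of the 483 members, 465 were kept. Lists of kidney identity, adrenal cortex, gonad, red cell and liver genes held no member with or without that array.

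Of the listed RT1 genes of the rat major histocompatibility complex, those with members were class I genes, which present peptides on the cell surface and come as near-identical copies, and some probes may bind several of them. RT1-CE16 had 4 members of 9, and the leading one read 4.31, 4.25, 4.42 and 4.62 in MWF and 8.10, 7.499, 7.67 and 7.83 in SHR. Its other 5 probe sets had a median of 0.12. At gene level RT1-CE16 differed by 1.60, the largest difference of the local genes measured there. RT1-A1 had 1 of 4, at 3.38, and RT1-CE10 had 1 of 8, at 2.13. Of 27 measured genes in the list 3 were called lower and 3 higher in MWF at gene level by limma, beside 3.40% and 3.18% of all gene-level probe sets, and the list's median difference was 0.0091.

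Across all member genes, 183 had a gene-level probe set with their symbol, taken as the brightest where there were several. Of these 71 were called lower in MWF by limma and 2, Cacna2d1 and Cd36, higher, beside 3.40% and 3.18% of all gene-level probe sets. Split by class, 32 of 123 local, 26 of 36 intermediate, 8 of 19 gene-wide and 5 of 5 genes with too few other probe sets were called lower. At exon level 421 of the 483 members were called by limma, beside 1.04% of all probe sets in that direction. The rule used the same contrast, so nothing is read from these counts.

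The 230 genes were spread over all autosomes and the X chromosome. By the RefSeq gene table of GRCr8, the share of measured genes with a member was highest on chromosome 17 (13 of 447, 2.91%), chromosome 12 (13 of 460, 2.83%) and chromosome 20 (14 of 496, 2.82%), which holds the histocompatibility complex, and lowest on chromosome 13 (3 of 498, 0.602%). Neighbouring member genes, with no other measured gene between them, formed 6 runs of 13 genes in all. These were Med23, Enpp3 and Enpp1, then Trrap with Tmem130, Clip1 with Vps33a, Man2b2 with Mrfap1, Spock1 with Trpc7, and Ltbp1 with Ttc27. No test was made of these counts.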

How the data were processed

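The authors deposited log2 intensity values of the same 8 arrays at exon and gene level. Their range and near-equal array medians show a log scale and a common normalization (7.93 to 7.99 at exon level, 8.17 to 8.21 at gene level). Partek is named in the submitters' processing notes. The method of background correction and normalization, like the array build and any filter, was not given in the sources used here. Precision is limited by the 4 arrays per strain. Detection calls and probe sequences were not used here. Symbols came from the platform annotation and were updated through the RefSeq table of GRCr8. All 380 members with 1 symbol matched it, while 8251 gene-level and 38482 exon-level probe sets had no symbol.

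Limma 3.58.1 in R 4.3.3 (lmFit, eBayes, strain as the only term, Benjamini-Hochberg adjustment over the whole table) was run on both levels and tested on simulated data. Other steps used Python 3.11.15. Gene lists were summed as linear intensities, with 1 gene-level probe set per gene. Alternatives covered the threshold, normalization, dim probe sets, variance model, replicate block, class limits and each array left out. Counting identical probe sets once was added after seeing the data. Named genes were the 10 with most members, the 10 with the largest difference, the 8 local genes with the widest gap to their other probe sets, 4 probe sets on each side of the threshold, and listed genes with a member. Provisional, olfactory and vomeronasal names were left out. Genes outside this rule, including those in the runs of neighbours, were named after their values were seen. The members and lists were chosen with earlier results of these data known.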

Additional observations from a re-analysis of the deposited data

Results flagged for a closer look

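In 130 groups of 4 arrays of named genes, 13 held an array far from the other 3 by Dixon's ratio, and chance gives about 1 in 20. Of the 13, 3 were SHR replicate 2 at gene level. Slc11a1 was 7.62 there (others from 8.62), P4ha2 was 8.18 (others from 8.81) and Slc18a2 was 5.71 (others from 8.87). MWF replicate 1 stood high at gene level in Abcd3 (9.92), Slc18a2 (6.14) and Trmt11 (8.30), and low in Pop5 at gene level (7.96) and in its leading member (8.03). Cyp2j10 was high in MWF replicate 3 in its leading member (5.55), and Gpm6a in MWF replicate 4 at gene level (7.80). SHR replicate 3 was low in the leading member of Med22 (9.77) and high in that of Ptgs2 (9.12). RT1-CE16 was low in SHR replicate 1 at gene level (7.11). At gene level the strains overlapped in Trmt11, where the lowest SHR array was 8.18, and in Slc18a2, where SHR replicate 2 lay below every MWF array.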

How the results depend on the processing

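The number of members was 1216 with a threshold of 1.0, 225 with 2.0 and 165 among probe sets at or above the median level, in 571, 109 and 104 genes. Leaving out 1 array gave 468 to 1164 members, in 227 to 367 genes, with the highest counts without SHR replicate 2. Quantile normalization gave 490 members, centred medians 482, medians of arrays 517, and identical probe sets counted once 465. Among the 230 genes as reported, gene-wide genes numbered 40 with limits of 0.75 and 0.25, and 14 to 28 with 1 array left out, and local genes 129 to 164 under the alternatives run. With the members also chosen anew without SHR replicate 2, 39 genes were gene-wide and 193 local. The gene-level count lower in MWF was 475 without dim probe sets, where fewer were tested, and 413 to 1414 with 1 array left out, the highest without SHR replicate 2. The exon-level count was 1287 to 4235 with 1 array left out, again highest without SHR replicate 2. With the replicate number as a block it fell from 2211 to 1105, while the gene-level count was 654 and that of member genes 67 of 183. Deviations from the strain mean at gene level correlated at 0.28, 0.15, 0.098 and 0.16 between same-numbered arrays of the strains. Between differently numbered arrays they correlated at -0.33 to 0.25. The labels do not say whether the numbers pair the samples, and these values do not settle it. The reported fits carry no block. Called member genes numbered 33 without dim probe sets and 57 to 103 with 1 array left out. The cause of these changes was not tested, except that a higher threshold, fewer arrays and fewer probe sets tested change counts by construction.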
